A study of Danio rerio with 7 samples.

Results

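The peaks of open chromatin described here were strong in *kdrl*:GFP+ cells, sorted as endothelium from zebrafish embryos, and nearly closed in *kdrl*:GFP- cells. A peak was taken when the deposited log2 mean concentration, the log2 of the mean normalised reads of a group, was 7 or more in *kdrl*:GFP+ cells and 3 or less in *kdrl*:GFP- cells. On a linear scale these limits are 128 and 8 normalised reads, so the rule itself asks for a difference of at least 4 on the log2 scale, or 16-fold. It took 1489 of the 44025 peaks in the table, or 3.38%. The table lists only peaks that the authors called differential between both populations, so regions open to the same degree in both were not analysed here.

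ATAC-seq was performed on cells sorted by FACS from wild-type embryos carrying Tg(kdrl:GFP)s843, in which regulatory sequence of *kdrl*, a VEGF receptor gene, drives GFP in the endothelium. The labels give 3 *kdrl*:GFP+ libraries and 3 *kdrl*:GFP- libraries at 26 to 27 hpf, each from 40000 to 50000 cells, and 1 genomic DNA control of 30000 cells at 28 to 30 hpf. All the embryos carried the transgene, and the *kdrl*:GFP+ gate held only the brighter GFP cells, without the dimmer ones, while *kdrl*:GFP- cells are a pool of many cell types. By the paper, 2 *kdrl*:GFP+ and 4 *kdrl*:GFP- libraries were compared, after 2 outlying *kdrl*:GFP+ replicates had been left out. These counts do not match the labels, and which libraries entered the means could not be worked out. Each peak carries 1 mean per group. No spread between libraries can be given for a peak, no test was run, and depth per library is unknown. Because the rule used the concentrations, these and their differences are a description of how the peaks were chosen, and each gene below is the nearest RefSeq promoter as the authors annotated it.

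Transposase inserts adapters where DNA is free of nucleosomes, which marks promoters and enhancers. Promoters are often open in many cell types, whereas enhancers, which lie in introns or far from genes, tend to be open in the lineage that uses them. In endothelium many enhancers are bound by ETS factors such as Etv2 and Fli1, often with Fox, Sox or Gata factors, and they drive the receptors, junction proteins and Notch components of the vessel wall. An enhancer need not act on the nearest gene, so the nearest promoter is a name for a place and not a target.

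Beside their values the populations are shortened to GFP+ and GFP-, and values are log2 mean concentrations unless stated otherwise. The chosen peaks had concentrations between 7.001 and 10.91 in *kdrl*:GFP+ cells, with a median of 7.64 and quartiles of 7.29 and 8.20. Of the 1489 peaks, 477 reached 8, 102 reached 9 and 14 reached 10. In *kdrl*:GFP- cells the median concentration was 1.77 and the highest was 2.999. The difference, *kdrl*:GFP+ minus *kdrl*:GFP-, ran between 4.06 and 10.69 with a median of 6.18. High signal in *kdrl*:GFP+ cells did not by itself bring a peak into the group. In all, 11021 peaks had 7 or more in *kdrl*:GFP+ cells and 13.5% of these met the limit in *kdrl*:GFP- cells.

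**Figure D1:**
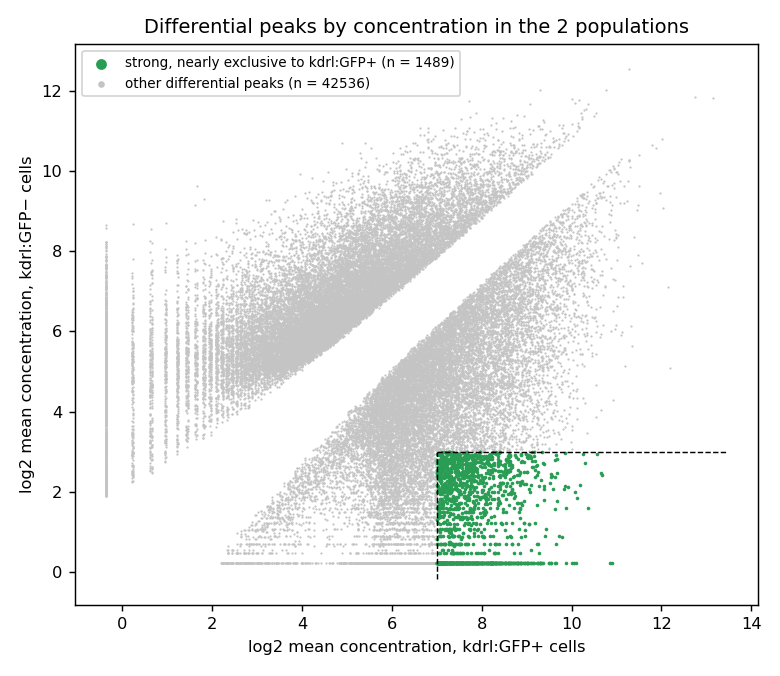
Each point is 1 of the 44025 differential peaks, with the log2 mean concentration in kdrl:GFP+ cells on the horizontal axis and in kdrl:GFP- cells on the vertical axis; the dashed lines are the limits of 7 and 3. The 1489 chosen peaks, in green, fill the lower right corner, and 393 of them lie on the lowest line, at 0.22.

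The lower end of the *kdrl*:GFP- values was a floor. The lowest *kdrl*:GFP- value, 0.22 or 1.16 normalised reads, was shared by 1499 peaks, and 393 of the chosen peaks (26.4%) had it. Below 1 there were 520 chosen peaks with 14 distinct values between them. The peaks at the floor had a median *kdrl*:GFP+ concentration of 7.69, against 7.61 for the other chosen peaks, so both sets were about as open in *kdrl*:GFP+ cells. Their median differences, 7.47 at the floor and 5.65 elsewhere, were thus set mainly by the *kdrl*:GFP- value.

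The opposite pattern was scarcer. With 3 or less in *kdrl*:GFP+ cells and 7 or more in *kdrl*:GFP- cells there were 364 peaks (0.827% of the table), 4.09-fold fewer than the 1489, although similar numbers of peaks were strong in each population, 11021 for *kdrl*:GFP+ and 10992 for *kdrl*:GFP-. Peaks with 7 or more in both groups numbered 3244 (7.37%). These are the sets the chosen peaks are set beside in what follows.

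No source used here says that the concentrations were divided by peak width. The chosen peaks had a median width of 551 bp (range 325 to 2875 bp), against 499 bp for all other peaks, 607 bp for the 364 peaks nearly exclusive to *kdrl*:GFP- cells and 1062 bp for the peaks strong in both. Per kb of width, the median linear concentration in *kdrl*:GFP+ cells was 364 normalised reads at the chosen peaks and 287 at the peaks strong in both. In the same unit the chosen peaks had a median of 5.61 in *kdrl*:GFP- cells. Not divided by width, the median log2 concentration in *kdrl*:GFP+ cells was lower at the chosen peaks, 7.64 against 8.30 at the peaks strong in both. The upper quartiles per kb were also lower, 473 against 552. Which set had the higher signal in *kdrl*:GFP+ cells thus depended on the measure, and the rule itself used these values.

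Most of the chosen peaks lay away from promoters. Intergenic peaks made up 871 of the 1489 (58.5%, 95% Wilson interval 56.0 to 61.0%), against 67.8% of all other peaks. Introns held 447 (30.0%, interval 27.7 to 32.4%), against 25.6% of all other peaks. For the peaks nearly exclusive to *kdrl*:GFP- cells the intron share was 28.3%, with an interval of 23.9 to 33.1% that includes 30.0%. Only 19 chosen peaks (1.28%, interval 0.818 to 1.98%) lay at a promoter, against 2.07% of all other peaks and 6.50% (211) of the peaks strong in both populations. The low promoter share was not particular to the chosen peaks. Of the 364 peaks nearly exclusive to *kdrl*:GFP- cells, 4 lay at a promoter (interval 0.428 to 2.79%). The intervals cover counting error only, and neighbouring peaks are not independent.

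Exons and the ends of genes held larger shares of the chosen peaks than of the rest of the table. Exons held 115 of the chosen peaks (7.72%, interval 6.47 to 9.19%), against 1364 (3.21%, interval 3.04 to 3.38%) of all other peaks, 2.68% of the peaks strong in both and 3 of 364 (0.824%) of the peaks nearly exclusive to *kdrl*:GFP- cells. Over all 19667 peaks with a higher value in *kdrl*:GFP+ cells the share was 5.15%, between these values. At the ends of genes there were 18 peaks (1.21%) in 3' UTRs and 18 (1.21%) at transcription termination sites, against 0.355 and 0.762% of all other peaks. Of the 364 peaks nearly exclusive to *kdrl*:GFP- cells, 3 lay in 3' UTRs and 4 at termination sites. Their intervals, 0.281 to 2.39% and 0.428 to 2.79%, include the 1.21% of the chosen peaks. At gene ends the chosen peaks were thus not set apart from that set. The exonic chosen peaks lay within genes and not at their starts. A single one (0.870%) was in exon 1, against 9.97% of the exonic peaks in the rest of the table, while 29 (25.2%) lay in the last exon, against 23.6% there. Among the intronic peaks, 114 of 447 (25.5%) were in intron 1, against 32.2% of the intronic peaks in the rest of the table. For the peaks nearly exclusive to *kdrl*:GFP- cells the intron 1 share was 28.2%, with an interval of 20.4 to 37.5% that includes 25.5%.

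**Figure D2:**
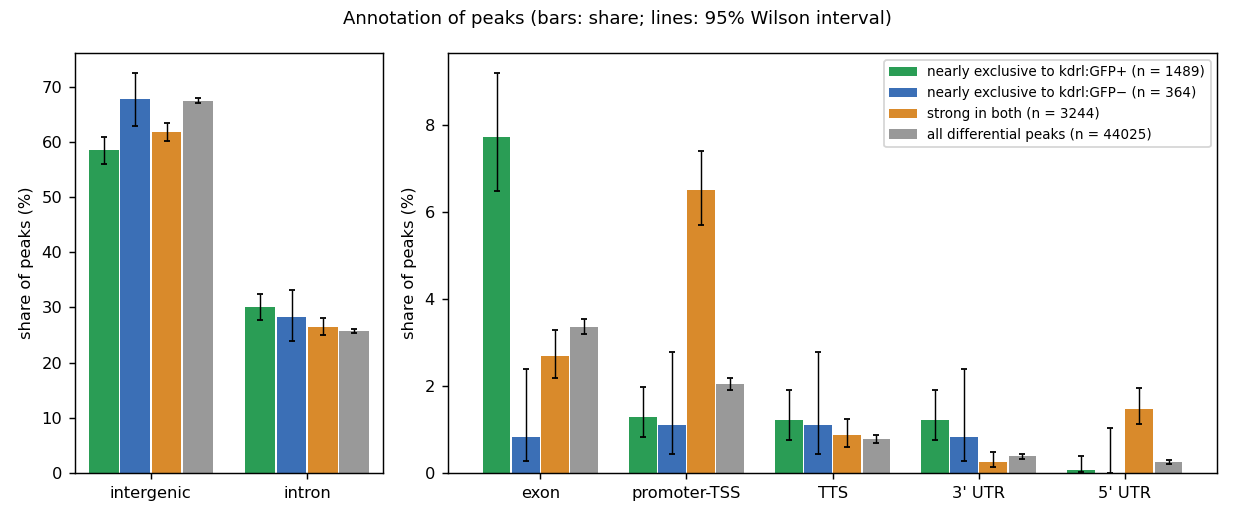
Share of peaks (%) in each annotation class for 4 sets of peaks; lines are 95% Wilson intervals, and the vertical scales of both panels differ. The chosen peaks have the highest exon share (7.72%), and the peaks strong in both populations the highest promoter share (6.50%).

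The strongest exonic peaks were spread over genes of several kinds. The highest was annotated to exon 5 of *ildr2*, with *ildr1b* as the nearest promoter (chr9:35254886-35255818 on Zv9), at 9.63 in *kdrl*:GFP+ cells, against 1.57 in *kdrl*:GFP- cells. It was followed by exon 9 of *ext1b*, which encodes a heparan sulphate polymerase, at 9.38 in GFP+ against 2.08 in GFP- cells. Then came exon 2 of *zdhhc14*, a palmitoyltransferase gene, at 9.25 in GFP+ against the floor of 0.22 in GFP- cells. Next were exon 14 of *msto1*, nearest to *gstr*, at 9.08 in GFP+ against 2.90 in GFP- cells, and exon 21 of *kdrl* itself (chr14:33861780-33862705), at 9.07 in GFP+ against 1.99 in GFP- cells. The *kdrl* peak lay 37.2 kb downstream of the *kdrl* start, and it was the sole peak of this gene that met the rule among its 10 in the table. Exon 3 of *rasip1*, which encodes a Ras-interacting protein needed for vessel lumens, had 8.81 in GFP+ against 0.22 in GFP- cells, so the exonic peaks fell in vascular genes and in genes of other kinds.

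The 19 promoter peaks were few enough to name by kind. Genes known from the vessel wall were among the highest. The promoter of *plvapb*, which encodes a protein of endothelial diaphragms (chr11:6082544-6083901), had 10.25 in *kdrl*:GFP+ cells, against 2.95 in *kdrl*:GFP- cells. The promoter of *stab1*, a scavenger receptor of venous and sinusoidal endothelium, had 8.78 in GFP+ against 2.25 in GFP- cells. For *pecam1a*, the gene of an adhesion molecule at endothelial contacts, the values were 8.03 in GFP+ against 2.82 in GFP- cells. The adrenomedullin co-receptor gene *ramp2* had 7.76 in GFP+ against 1.39 in GFP- cells, and *sele*, named for the selectin of activated endothelium, had 7.74 in GFP+ against 0.22 in GFP- cells. The promoter of *kdr*, a VEGF receptor gene related to *kdrl*, was near the lower limit at 7.16 in GFP+ against 2.75 in GFP- cells. The others among the 10 highest were *fev*, an ETS factor gene known from serotonergic neurons (8.59 in GFP+, 2.88 in GFP- cells), *ankfy1* (8.32 in GFP+, 1.05 in GFP- cells), *tmem88a* (8.23 in GFP+, 0.22 in GFP- cells), *igf2bp2b* (7.87 in GFP+, 2.13 in GFP- cells) and *zgc:103755* (7.78 in GFP+, 1.99 in GFP- cells). Outside the 10 highest, besides *kdr*, came *zgc:172053* (7.66 in GFP+, 0.22 in GFP- cells), *cd247l* (7.59 in GFP+, 2.80 in GFP- cells) and *nrn1b* (7.44 in GFP+, 2.59 in GFP- cells). The rest were *slc6a15* (7.38 in GFP+, 0.22 in GFP- cells), *ncaldb* (7.18 in GFP+, 2.80 in GFP- cells), *zgc:174945* (7.11 in GFP+), *tnfaip8l2a* (7.08 in GFP+) and *klhl6* (7.07 in GFP+ cells). The 19 promoter peaks covered a range of 7.07 to 10.25 in *kdrl*:GFP+ cells, so promoters were not confined to the weak end of the group.

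At transcription termination sites the highest peaks belonged to *plk2b* (10.85 in GFP+, 0.22 in GFP- cells), *ddx23* (9.54 in GFP+, 0.22 in GFP- cells), *otofa*, nearest to *pdia6* (8.55 in GFP+, 0.71 in GFP- cells), and *mgat1b* (8.25 in GFP+, 0.22 in GFP- cells). The gene *plk2b* encodes a polo-like kinase, and its peak was also the widest of the chosen ones, at 2875 bp. The other named peaks of this class lay between 7.28 and 8.08. A peak at the end of *tmeff2a* had *cavin2a*, a gene of caveolae, as the nearest promoter, at 7.87 in GFP+ against 0.22 in GFP- cells.

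The median absolute distance from the nearest transcription start site (TSS) was 33.2 kb for the chosen peaks and 42.3 kb for all other peaks. It was 38.9 kb for the peaks nearly exclusive to *kdrl*:GFP- cells and 28.5 kb for those strong in both. The chosen peaks and all other peaks differed most beyond 100 kb and between 10 and 50 kb. Between 10 and 50 kb there were 662 chosen peaks (44.5%), against 36.7% of all other peaks. For the peaks nearly exclusive to *kdrl*:GFP- cells that share was 40.1%, with an interval of 35.2 to 45.2% that includes 44.5%. Beyond 100 kb there were 219 chosen peaks (14.7%), against 24.4% of all other peaks. The share beyond 100 kb was 16.3% for the peaks strong in both and 18.96% for those nearly exclusive to *kdrl*:GFP- cells. Within 1 kb of a TSS lay 26 (1.75%), against 3.25% of all other peaks and 12.2% of the peaks strong in both. For the peaks nearly exclusive to *kdrl*:GFP- cells it was 1.37%. Against all other peaks, the chosen peaks were thus fewer both at the promoter and at very long range. Both traits were shared by the peaks nearly exclusive to *kdrl*:GFP- cells, and the second also by the peaks strong in both. Of the chosen peaks, 881 (59.2%) lay downstream of the TSS, against 56.3% of all other peaks.

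**Figure D3:**
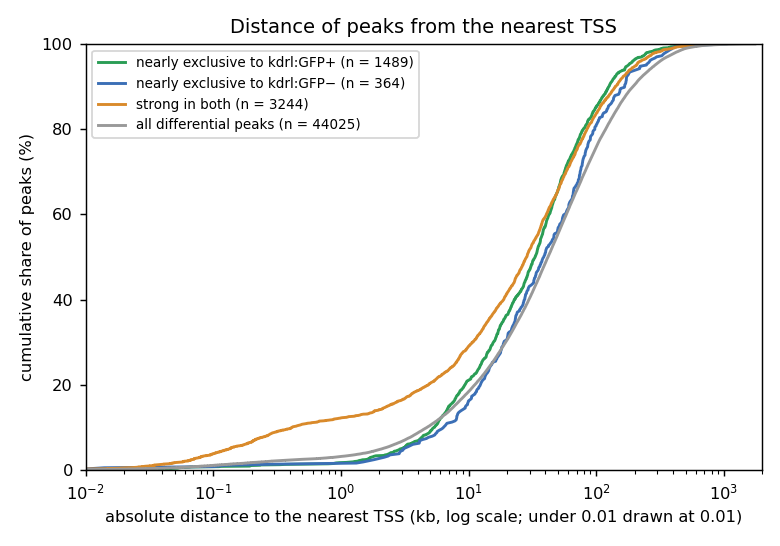
Cumulative share of peaks (%) by absolute distance to the nearest TSS (kb, log scale) for the same 4 sets. The curve of the chosen peaks starts low, like that of the peaks nearly exclusive to kdrl:GFP- cells, and then climbs faster than that of all differential peaks, to a median of 33.2 kb.

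A few lay very far from any promoter. The farthest were 834 kb from *cnga2a*, 633 kb from *lect2l*, 605 kb from *dtx2* and 529 kb from *zfyve21*. The next were both peaks named for *efnb2a*, the gene of the arterial ligand ephrin B2, at 507 and 501 kb. At such distances the name says little about which gene a region serves. Distance also misled nearer to genes. Of the 618 chosen peaks inside a transcript or at its end, 164 (26.5%) had the promoter of another gene as the nearest.

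Some of these 164 stood in vascular genes. A peak in intron 16 of *notch1b*, a Notch receptor gene (chr5:68704574-68705900), was named for *camsap1b* and had 10.10 in *kdrl*:GFP+ cells, against 0.22 in *kdrl*:GFP- cells. One in intron 2 of *tmem204*, which encodes a claudin-like membrane protein (chr24:39366983-39368043), was named for *ccpg1* and had 10.67 in GFP+ against 2.42 in GFP- cells. Of the listed genes described below, 10 chosen peaks lay inside a gene of a list but were named for a gene outside it or for its embedded microRNA. Besides *notch1b* they included peaks in *jam3b*, a junctional adhesion gene (9.55 in GFP+, 2.45 in GFP- cells), *tgfbr2b*, a TGF-beta receptor gene (8.82 in GFP+, 1.71 in GFP- cells), *fli1b* (8.34 in GFP+, 0.22 in GFP- cells), *spns2*, the sphingosine-1-phosphate exporter gene (8.21 in GFP+, 2.65 in GFP- cells), *mef2ca* (7.43 in GFP+, 0.71 in GFP- cells) and *foxp1b* (7.15 in GFP+, 2.77 in GFP- cells). Counting by the nearest promoter leaves these out of their host genes.

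By the nearest promoter, the 1489 peaks fell to 1247 of the 9318 genes in the table (13.4%). Of these genes, 1064 (85.3%) had a single such peak, 183 had 2 or more, 45 had 3 or more, 9 had 4 or more and 4 had 5 or more. The genes with a chosen peak had a median of 6 peaks each in the table and the remaining genes a median of 2, and having more peaks gives more chances of a chosen one. The group was therefore broad and thin, with most of its genes represented once.

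Other peaks of the same genes went in both directions. They numbered 7950, of which 4085 (51.4%) were higher in *kdrl*:GFP+ cells, against 40.7% of the 34586 peaks of genes with no chosen peak and 44.7% of the whole table. In 434 of the 1247 genes every peak was higher in *kdrl*:GFP+ cells, and 813 (65.2%) also had at least 1 peak that was lower. The share of all genes with a lower peak was not counted, and more peaks per gene give more chances of a lower one. The 65.2% is therefore not read as a trait of these genes. For *noc2l*, as an example named after its values were seen, 4 chosen peaks stood among 33 peaks, of which 18 were higher.

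The genes with the most chosen peaks were *kdr* with 6, and *flt1*, *dusp6* and *si:ch211-147m20.3* with 5 each. The gene *flt1* encodes a VEGF receptor that also exists as a soluble decoy. Its 5 chosen peaks had 7.35, 7.94, 9.04, 10.06 and 9.49 in *kdrl*:GFP+ cells, against 1.45, 0.22, 0.22, 0.22 and 0.22 in *kdrl*:GFP- cells, in order along the chromosome. The strongest of these (chr24:22388890-22389955) was annotated to the 3' UTR in exon 11 of 11 of a short *flt1* transcript, and all 11 peaks of the gene were higher in *kdrl*:GFP+ cells. For *kdr* the 6 chosen peaks had 7.16, 7.48, 7.72, 8.07, 7.69 and 8.06 in GFP+ cells, against 2.75, 2.01, 0.88, 1.95, 2.55 and 0.22 in GFP- cells. They ran from the promoter through exon 6 and introns 1, 10 and 16 to beyond the gene, and its 8 peaks in the table were all higher.

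The gene *dusp6* encodes a phosphatase that acts on ERK, the kinase downstream of VEGF and FGF receptors. Its 5 chosen peaks had 7.16, 7.44, 7.12, 8.05 and 7.15 in *kdrl*:GFP+ cells, against 2.66, 2.55, 0.22, 0.49 and 1.25 in *kdrl*:GFP- cells. They lay on both sides of the gene, the farthest 46.3 kb upstream within an intron of *poc1b*. Of the 13 peaks of *dusp6*, 10 were higher, so this gene also had elements more open in *kdrl*:GFP- cells. The non-coding gene *si:ch211-147m20.3* had chosen peaks of 8.11, 7.91, 7.56, 7.63 and 9.82 in GFP+ cells, against 0.22, 2.42, 1.36, 1.91 and 2.08 in GFP- cells, between 85.2 and 180 kb downstream of its start.

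Some chosen peaks lay near each other, but most did not. When peaks with edges at most 50 kb apart were joined, 405 of the 1489 (27.2%) fell into 164 clusters, and 1084 stood alone. Of the clusters, 46 held 3 or more, 18 held 4 or more and 7 held 5 or more. Of the 364 peaks nearly exclusive to *kdrl*:GFP- cells, 15.1% fell into 26 clusters and the largest held 4. Since the smaller set is also sparser along the genome, these shares are not on an equal footing. With a gap of 20 kb 16.5% of the chosen peaks were clustered, and with 100 kb 40.4%.

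The direction of the next peak on either side was then counted. Within 1 kb of a chosen peak the table had 162 such neighbours, and 158 of them (97.5%) were higher in *kdrl*:GFP+ cells. Within 5 kb the share was 84.2% of 846, within 20 kb 76.7% of 1825 and within 50 kb 72.7% of 2486. Some neighbours were themselves chosen, 32 within 1 kb and 222 within 50 kb (8.93%, against 3.44% around all peaks). Without these the shares of higher neighbours were 96.9 and 70.1%. Around the remaining peaks with a higher value in *kdrl*:GFP+ cells the shares were 86.1, 73.7, 65.6 and 62.4% over the same distances, and around all peaks they were 43.1, 41.6, 42.5 and 43.5%. Around the peaks nearly exclusive to *kdrl*:GFP- cells, 98.2% of the next peaks within 1 kb and 84.4% within 50 kb were lower in *kdrl*:GFP+ cells. Neighbours thus mostly shared the direction of a nearly exclusive peak of either kind, most often at short range. Whether very close peaks were parts of a single open region was not tested.

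The largest cluster held 8 chosen peaks in 112 kb (chr20:22293000-22404697) and joined *kdr* with *kita*, the gene of a Kit receptor tyrosine kinase. All 11 peaks of the table in this span were higher in *kdrl*:GFP+ cells. The strongest of the 8 lay between the genes, at 9.18 in GFP+ against 2.37 in GFP- cells. The 3 other peaks in the span had 6.32, 6.44 and 6.90 in *kdrl*:GFP+ cells, against 1.39, 4.25 and 0.55 in *kdrl*:GFP- cells. They shared the direction of the chosen peaks but missed the limit of 7.

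The densest of the 8 clusters with the most chosen peaks was that of *egfl7*, the gene of a protein secreted by endothelium, which holds the endothelial microRNA gene *mir126b* in an intron. Here 6 chosen peaks stood within 22.3 kb (chr11:38477265-38499613). In *kdrl*:GFP+ cells they had 7.92, 8.81, 8.95, 7.25, 9.65 and 8.87, against 2.37 for the first and the floor of 0.22 for the other 5 in *kdrl*:GFP- cells. The 5 other peaks among them were also higher, and the strongest of these had 10.50 in GFP+ against 7.30 in GFP- cells, open in both populations. A peak at the start of *mir126b* had 9.01 in GFP+ against 3.77 in GFP- cells and so missed the rule by its *kdrl*:GFP- value. The related *mir126a* on chromosome 8 was the name of a chosen peak 11.1 kb upstream, at 10.12 in GFP+ against 1.85 in GFP- cells.

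The cluster of *pan3* and *flt1* held 6 chosen peaks in 67.0 kb, with 8 of 8 peaks higher. That of *dusp6* and *poc1b* held 6 in 99.0 kb, with 11 of 14 higher, and its lower peaks included the strongest *kdrl*:GFP- peak of the span, at 8.72 in GFP+ against 10.61 in GFP- cells. Around *plk2b* and *mier3b* there were 5 in 54.0 kb, with 9 of 9 higher. The remaining clusters of 5 were at *si:ch211-147m20.3* (95.6 kb, 6 of 8 higher) and across *gpr132b*, *vipas39* and *cdc42bpb* (116 kb, 7 of 8 higher). This last cluster ran through introns of *cdc42bpb*, which encodes a kinase that binds Cdc42, and 4 of its 5 chosen peaks were at the floor in *kdrl*:GFP- cells, the other having 0.90. Of the 11 clusters with 4 chosen peaks, the shortest was at *tcea2* (26.2 kb, 7 of 7 higher). Clusters thus differed in kind, some uniform in direction and others mixed with peaks higher in *kdrl*:GFP- cells.

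**Figure D4:**
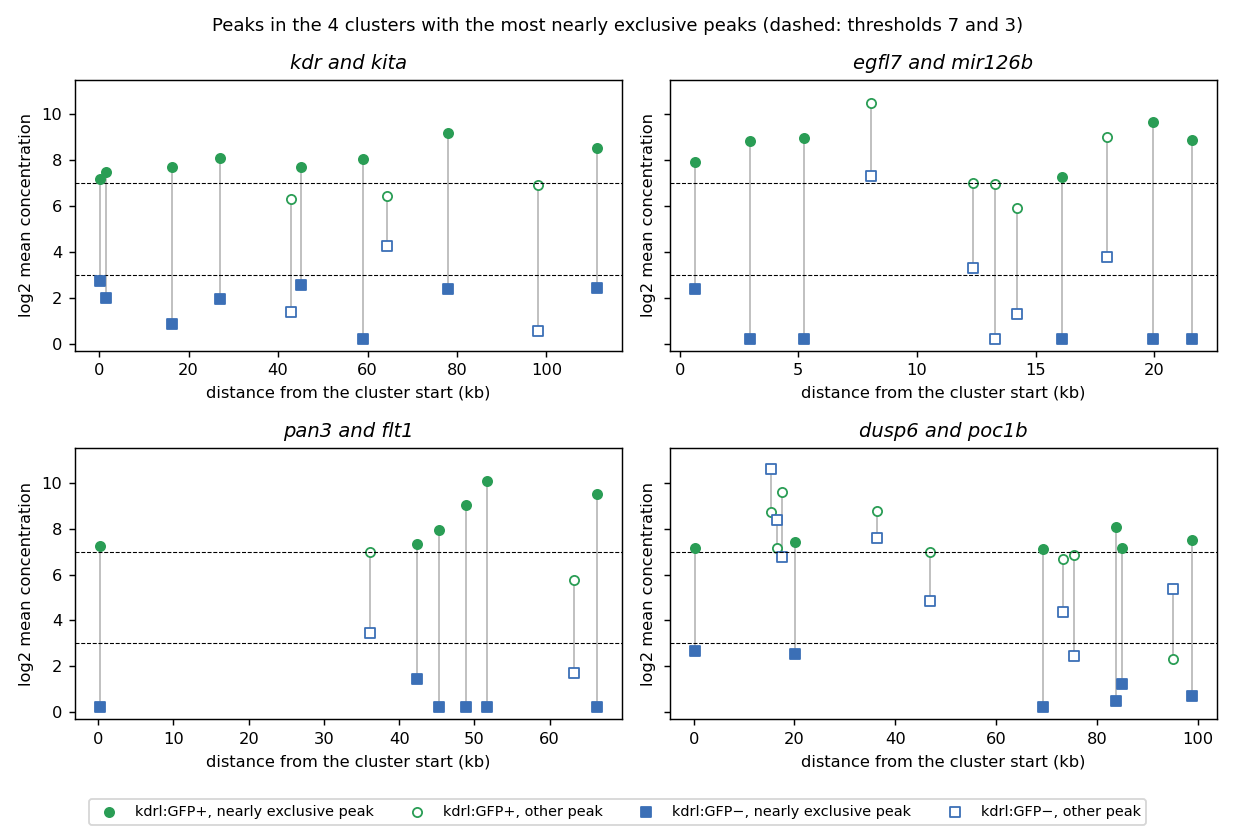
Log2 mean concentration of every peak in the table within the 4 clusters with the most chosen peaks, by distance from the cluster start (kb); green circles are kdrl:GFP+ and blue squares kdrl:GFP- cells, filled for chosen peaks, and the dashed lines are the limits of 7 and 3. In the kdr and kita, egfl7 and mir126b, and pan3 and flt1 clusters every peak is higher in kdrl:GFP+ cells, whereas the dusp6 and poc1b cluster holds 3 that are lower.

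Chosen peaks occurred on all 25 chromosomes. They made up between 2.27% of the peaks (chromosome 12) and 4.38% (chromosome 3).

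To see which known genes the peaks were named for, 18 lists of genes of endothelium and of other cell types were drawn up. Of 123 endothelial genes whose promoter was the nearest to some peak in the table, 46 (37.4%) had a chosen peak, against 13.4% of all genes. These genes also had more peaks, with a median of 8 each, against 3 over all genes. Counted by peak, 76 of their 1267 (5.998%) were chosen, against 3.38% of all peaks. Both shares were above those of the table, and the smaller gap by peak goes with the larger number of peaks per gene. The rule picked peaks for their signal in *kdrl*:GFP+ cells, and the lists were drawn up with earlier results of these data known. The shares are therefore a description and not a test.

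Among VEGF receptors and their co-receptors, 6 of 9 genes had a chosen peak. Besides *kdrl*, *kdr* and *flt1* these were *flt4*, the receptor gene of veins and lymphatics (7.81 in GFP+, 2.41 in GFP- cells), and the neuropilin genes *nrp1a* (7.35 in GFP+, 0.90 in GFP- cells) and *nrp2b* (7.47 in GFP+, 2.95 in GFP- cells). The semaphorin receptor gene *plxnd1* had none, and its peak with the largest difference had 6.61 in GFP+ against 3.26 in GFP- cells. The genes *kdr*, *kdrl*, *flt1* and *flt4* were thus all represented, by 1 to 6 peaks each.

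In the Notch pathway, which sets arterial fate, 7 of 15 genes had a chosen peak. The ligand genes were *dll4* (8.51 in GFP+, 2.55 in GFP- cells at 139 kb and 7.58 in GFP+ against 0.98 in GFP- cells at 90.7 kb upstream), *dlc* (7.91 and 7.84 in GFP+, both 0.22 in GFP- cells), *dld* (7.39 in GFP+, 0.22 in GFP- cells), *jag1b* (7.88 in GFP+, 0.49 in GFP- cells) and *jag2b* (8.80 in GFP+, 2.81 in GFP- cells and 8.87 in GFP+ against 2.93 in GFP- cells). The name *dld* is the printed one, whereas matching by accession gave *dldh*, so its place among the ligand genes rests on the printed symbol. Of the receptors, *notch1a* had a peak in intron 4 at 8.25 in GFP+ against 2.36 in GFP- cells. The target *hey2*, a repressor needed for the aorta, had the strongest peak of the list at 10.07 in GFP+ against 1.99 in GFP- cells, 14.7 kb upstream (chr20:39636187-39637321). Over all 179 peaks of the list, however, 31.3% were higher in *kdrl*:GFP+ cells, below the 44.7% of the table. Notch genes also act in many other tissues of the embryo.

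Among the listed ETS factors, 4 of 11 genes had chosen peaks. The list was partial, without *fev*, named above, and without *spi1a* and *spi1b*, which were counted with the myeloid genes. The endothelial gene *fli1a* had a peak in intron 1 at 9.71 in GFP+ against 0.89 in GFP- cells and one upstream at 7.31 in GFP+ against 2.60 in GFP- cells. Its relative *fli1b* had 9.05 in GFP+ against 1.20 in GFP- cells and 7.84 in GFP+ against 0.22 in GFP- cells, both in intron 1. For *elk3* and *ets2* the values were 9.34 and 9.25 in GFP+ cells, both against 0.22 in GFP- cells, and the peak named for *ets2* lay in *sim2*. The early vascular regulator *etv2* had none. Its strongest difference was 9.45 in GFP+ against 4.27 in GFP- cells, above the *kdrl*:GFP- limit.

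Of the listed Kruppel-like factor genes, 5 of 7 had chosen peaks. The list was partial, without *klf11b*, which had 3 chosen peaks of up to 8.14 in GFP+ cells. It was also without *klf1*, which was counted with the erythroid genes. The flow-responsive *klf2a* had 3, with 10.36, 9.13 and 7.69 in GFP+ cells, against 1.61, 0.22 and 2.49 in GFP- cells, at 40.7 and 5.67 kb upstream and 23.9 kb downstream. The others were *klf4* (8.87 in GFP+, 0.88 in GFP- cells), *klf12b* (7.66 in GFP+, 0.22 in GFP- cells), *klf6a* (7.63 in GFP+, 2.52 in GFP- cells) and *klf7b* (7.32 in GFP+, 1.67 in GFP- cells). Of 15 genes of SoxF, Fox and related factors, 2 had one, *foxp1b* at 9.12 and *mef2aa* at 7.07 in GFP+ cells, both against 0.22 in GFP- cells. That was 13.3% of these genes, near the 13.4% of all genes. By peak, 1.06% of their 188 peaks were chosen, against 3.38% of all peaks.

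The list of scavenger, lectin and other surface genes had the highest share, 8 of 11. Its 72.7% was close to the 71.4% of the Kruppel-like factors. Among the 8 were *egfl7*, whose protein is secreted, and *dusp5*, so not all are surface genes. The gene *stab1* had 3 chosen peaks, at 7.21, 8.78 and 7.82 in GFP+ cells, against 0.22, 2.25 and 0.90 in GFP- cells. Its relative *stab2* had 8.25 and 7.96 in GFP+ cells, against 0.22 and 2.64 in GFP- cells. The receptor gene *gpr182* had 8.18 in GFP+ against 0.22 in GFP- cells and 7.95 in GFP+ against 2.30 in GFP- cells, and *dusp5*, an ERK phosphatase gene, had 8.66 in GFP+ against 1.99 in GFP- cells. The adrenomedullin receptor gene *calcrla*, partner of *ramp2*, had a weaker peak at 7.15 in GFP+ against 2.74 in GFP- cells. The listed junction and adhesion genes had 4 of 8, with *esama* (8.51 in GFP+, 1.05 in GFP- cells and 8.48 in GFP+ against 1.49 in GFP- cells), *cldn5b* (8.46 in GFP+, 2.21 in GFP- cells), *jam3b* (8.17 in GFP+, 2.82 in GFP- cells and 7.60 in GFP+ against 2.21 in GFP- cells) and *mcamb* (8.67 in GFP+, 0.69 in GFP- cells and 7.29 in GFP+ against 1.48 in GFP- cells). These 8 did not include *pecam1a*, which had 3 chosen peaks among its 11, with the promoter peak named above as 1 of them.

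Of 11 genes of sphingosine, CCM and Rap1 signalling, which act on junctions and lumens, 4 had a chosen peak. The gene *rasip1* had 10.30 in GFP+ against 2.73 in GFP- cells upstream of its start besides its exonic peak, and *arhgap29b*, whose mammalian homologue works with Rasip1, had 9.43 in GFP+ against 1.07 in GFP- cells and 8.60 in GFP+ against 2.55 in GFP- cells. For *spns2* there were 8.57 in GFP+ against 0.22 in GFP- cells and 8.37 in GFP+ against 1.71 in GFP- cells, and for the receptor gene *s1pr2* 7.65 in GFP+ against 0.71 in GFP- cells. The receptor gene *s1pr1* went the other way, its only peak having 1.44 in GFP+ against 7.29 in GFP- cells. All 6 peaks of *radil* were also lower in GFP+ cells. The peaks with the largest difference at *ccm2*, *heg1*, *pdcd10a*, *rap1aa* and *rap1b* were higher in GFP+ cells but outside the limits. In BMP and Alk1 signalling 4 of 14 genes had one, *smad5* (8.61 in GFP+, 2.94 in GFP- cells), *tgfbr2b* (8.25 in GFP+, 2.99 in GFP- cells), *id1* (7.40 in GFP+, 1.05 in GFP- cells) and *smad6b* (7.27 in GFP+, 1.78 in GFP- cells). By peak this list was not above the table, with 3.03% of its 132 peaks chosen, against 3.38% of all peaks. Of 10 apelin and chemokine genes *aplnrb* alone had chosen peaks (7.90 in GFP+, 0.22 in GFP- cells and 7.52 in GFP+ against 2.23 in GFP- cells), and of 7 ephrin and venous genes *efnb2a* alone. These were 10.0 and 14.3% of the genes, against 13.4% of all genes. By peak, 1.75 and 1.74% were chosen, against 3.38% of all peaks. Higher values in *kdrl*:GFP+ cells were found at 34.2 and 23.5% of the peaks of these lists, against 44.7% of the whole table. Of 5 Tie receptor and angiopoietin genes none had one, although 54.7% of their 53 peaks were higher in *kdrl*:GFP+ cells.

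A missing chosen peak did not mean closed chromatin in *kdrl*:GFP+ cells. Several defining genes had strong peaks whose *kdrl*:GFP- value was above the limit of 3, narrowly at *clec14a* and more clearly at the others. For *cdh5*, the VE-cadherin gene, the peak with the largest difference had 10.65 in *kdrl*:GFP+ cells, against 4.05 in *kdrl*:GFP- cells. For *clec14a* the values were 10.00 in GFP+ against 3.07 in GFP- cells, for *sox7* 10.12 in GFP+ against 4.56 in GFP- cells, and for the Tie2 gene *tek* 9.01 in GFP+ against 4.15 in GFP- cells. On the other side, the *kdrl*:GFP+ limit left out *lmo2* (6.82 in GFP+, 0.22 in GFP- cells), *sox17* (6.30 in GFP+, 0.22 in GFP- cells) and *runx1* (6.61 in GFP+, 0.22 in GFP- cells). The group is thus a selection by 2 limits and not a list of endothelial elements.

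**Figure D5:**
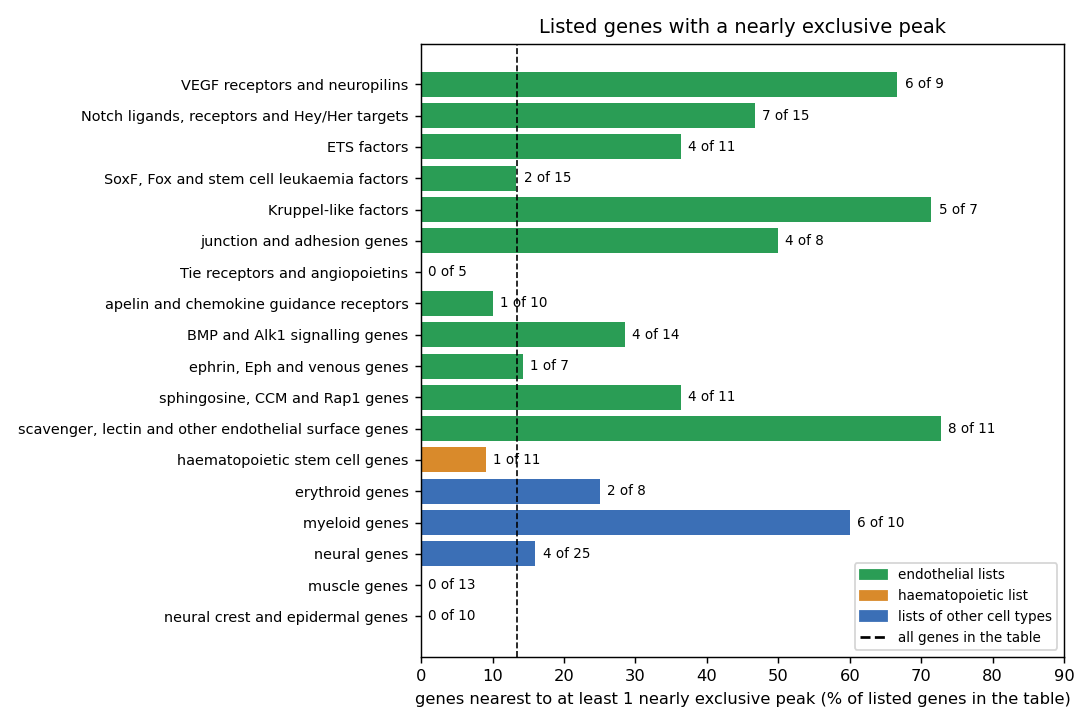
Share of listed genes in the table (%) that are the nearest promoter of at least 1 chosen peak, for 18 lists, with the counts beside the bars; the dashed line is the share over all genes, 13.4%. The surface list, which also holds egfl7 and dusp5 (8 of 11), Kruppel-like factors (5 of 7) and VEGF receptors (6 of 9) lie highest among the endothelial lists. Myeloid genes reach 6 of 10, and muscle and neural crest lists have none.

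Lists of other cell types were counted in the same way. The *kdrl*:GFP- limit itself leaves out peaks open in the main cell types of that pool. A lack of chosen peaks at genes of those cells therefore cannot check the endothelial label. Neither the 13 muscle genes nor the 10 neural crest and epidermal genes in the table had a chosen peak, and of 25 neural genes 4 (16.0%) did. Those were *zic2a* (9.28 in GFP+, 2.16 in GFP- cells, 115 kb from its start), *neurod1* (7.36 in GFP+, 0.22 in GFP- cells), *sox1b* (7.15 in GFP+, 0.22 in GFP- cells) and *elavl3* (7.04 in GFP+, 2.72 in GFP- cells), each at least 59.9 kb from the promoter that names it. Over all 287 neural peaks 10.5% were higher in *kdrl*:GFP+ cells and 1.39% were chosen, against 3.38% of all peaks.

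Myeloid genes were different. Of the 10 listed, 6 (60.0%) had a chosen peak, against 13.4% of all genes. By peak, 7 of the 40 (17.5%) were chosen, against 3.38% of all peaks. The list of scavenger, lectin and other surface genes had the same share by peak, 17.5%. Of the 40 myeloid peaks, 85.0% were higher in *kdrl*:GFP+ cells, with a median difference of 2.98. The regulators *spi1b* and *spi1a*, which encode Pu.1 factors, had 7.23 and 7.34 in GFP+ cells, against 1.49 and 2.08 in GFP- cells. The regulator genes *cebpb*, *cebpa* and *irf8* had 8.95, 7.15 and 7.08 in GFP+ cells, all against 0.22 in GFP- cells. The lysozyme gene *lyz* had 7.06 and 7.01 in GFP+ cells, both against 0.22 in GFP- cells. The peaks with the largest difference at *mpx*, the myeloperoxidase gene, and *coro1a* were higher but above the *kdrl*:GFP- limit, at 8.51 and 8.67 in GFP+ cells, against 4.60 and 4.28 in GFP- cells, and that of *csf1ra*, the macrophage receptor gene, had 6.81 in GFP+ against 2.47 in GFP- cells. All but 1 of the 10 genes, *mfap4.1* (3.89 in GFP+, 5.23 in GFP- cells), thus had a higher peak. Of 8 erythroid genes, *klf1* (7.59 in GFP+, 2.17 in GFP- cells) and *hbae3* (7.24 in GFP+, 0.22 in GFP- cells, 49.8 kb away) had one. That share was also above the 13.4% of all genes, but it rests on 2 genes. By peak, 2 of the 33 erythroid peaks (6.06%) were chosen, against 3.38% of all peaks. Higher values in *kdrl*:GFP+ cells were found at 66.7% of the erythroid peaks, against 44.7% of the whole table. The part that blood cells within the *kdrl*:GFP+ gate had in these peaks was not tested, and elements shared by endothelium and blood cannot be told apart from it in pooled cells.

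Of 11 haematopoietic stem cell genes, *gata2a* alone had a chosen peak, annotated to intron 4 of 5 (chr11:3915580-3916252), at 8.38 in GFP+ against 0.22 in GFP- cells. It was 1 of 14 peaks of that gene in the table, and 7 of the 14 had their larger value in *kdrl*:GFP- cells. The share of these stem cell genes with a chosen peak was 9.09%, against 13.4% of all genes. By peak, 1 of their 109 (0.917%) was chosen, against 3.38% of all peaks. Neither share was above that of the table.

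Among the chosen peaks, the highest *kdrl*:GFP+ values belonged to peaks near *cdnf* (10.91 in GFP+, 0.22 in GFP- cells) and *plk2b* (10.85 in GFP+, 0.22 in GFP- cells), both within 10 kb of the promoter, followed by the peak in *tmem204*, one near *fam177a1* (10.65 in GFP+, 2.48 in GFP- cells) and one near *b3gnt7* (10.57 in GFP+, 2.95 in GFP- cells). Of the 10 highest, *klf2a*, *rasip1*, *plvapb* and *mir126a* are known from the vessel wall, and a peak near *hint2* (10.19 in GFP+, 2.18 in GFP- cells) completes them. The largest differences after *cdnf*, *plk2b*, *notch1b* and *flt1* were at *crip2*, a LIM protein gene (10.02 in GFP+, 0.22 in GFP- cells), *rps6ka3b* (9.87 in GFP+ cells), *mir126b* (9.65), *gsk3ab* (9.62), *niban2a* (9.55) and *ddx23* (9.54), each at the floor in *kdrl*:GFP- cells. All 10 largest differences were measured against the floor, so their order is that of the *kdrl*:GFP+ value.

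The limits cut through a continuous range. The chosen peaks nearest the *kdrl*:GFP+ limit, at *ap3m2*, *rps4x* and *lipt1*, and peaks just outside it, at *pglyrp2* and *fbxl14a*, lay within a few thousandths of it, with 7.001 at *ap3m2* and 6.999 at *pglyrp2*. At the *kdrl*:GFP- limit, *nav3*, *cpeb1b* and *asap2a* were inside, with 2.999 at *nav3*, and *fndc3ba* (3.002), *zgc:194242* (3.006) and *ptpdc1a* (3.007) were outside. Peaks on either side of a limit hardly differed.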

How the data were processed

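ATAC-seq libraries of sorted *kdrl*:GFP+ and *kdrl*:GFP- cells and a genomic DNA control were grouped by their labels. Per the labels and methods, Trimmomatic 0.32 was used for trimming and BWA 0.7.12 for mapping to Zv9; the authors then called peaks in each sample against the control and compared the groups with DiffBind, which used edgeR; annotation was by HOMER. The deposited concentrations are log2 mean normalised reads of a group. How libraries were scaled, and whether duplicates were removed or reads shifted for the transposase, is not given in the sources used here. The authors' own fold and p-value columns hold their comparison and were not used. A second deposited table of genes, with 6 per-sample columns that match no sample of the series and the authors' fold changes and p-values between WT and Mo columns, was not used. Depth per library is unknown.

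Peaks were chosen by the limits 7 and 3. Symbols were matched by accession to the RefSeq annotation of GRCz12tu, used for names only, which gave a current symbol for 1404 of the 1489 peaks; *fli1a*, *fli1b*, *dld* and *etv2* are the names printed in the table. No Zv9 sequence was used. Shares have 95% Wilson intervals, and clusters join peaks at most 50 kb apart. The clustering and intervals were tested on simulated data. Named were the 10 highest peaks, the 10 largest differences, genes with 5 or more chosen peaks, the 8 clusters with the most (the tie among clusters of 4 was settled by span after values were seen), up to 10 promoter, termination site and exon peaks, listed genes with a chosen peak and 3 peaks on each side of each limit, of which 1 is not reported here; the other peaks and genes were chosen after their values were seen. The peaks and the 18 lists were chosen with earlier results of these data known. Alternatives were other limits, cluster gaps, promoter definitions, gene assignments and symbols, and omission of the peaks at the floor of 0.22. Python 3.11.15, numpy 2.4.6, pandas 2.3.3, scipy 1.17.1 and matplotlib 3.10.9 were used.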

Additional observations from a re-analysis of the deposited data

How the results depend on the processing

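No paired analysis was possible because the table holds only group means, and for the same reason no replicate could be left out in turn. Of 78 alternative values, 41 were within 1.5 times the reported count, or within the 95% interval of the reported share or median, and 37 were outside; those outside are given here. With a *kdrl*:GFP+ limit of 8 there were 477 peaks, 55.1% intergenic and 34.6% intronic, with a median distance of 29.1 kb and width of 719 bp, in 434 genes (2 with 3 or more); 15.7% were clustered, with 3 clusters of 4 or more, and 29 endothelial genes and 2 genes of other cell types had one. With a limit of 6 there were 3380 peaks (median width 447.5 bp) in 2464 genes (189 with 3 or more), 42.5% were clustered and 74 clusters held 4 or more. With a *kdrl*:GFP- limit of 2 there were 850 peaks at a median distance of 30.2 kb in 749 genes (20 with 3 or more), 21.9% clustered, with 8 clusters of 4 or more. With a limit of 4 there were 2489 peaks (median width 567 bp) in 1897 genes (112 with 3 or more), 38.0% clustered, with 33 such clusters. Without the peaks at the lowest *kdrl*:GFP- concentration, 20 genes had 3 or more, 20.4% of peaks were clustered, 6 clusters held 4 or more and 5 genes of other cell types had a peak. A gap of 20 kb left 6 clusters of 4 or more with 16.5% of peaks, and a gap of 100 kb gave 28 with 40.4%. The exon share lay between 6.50 and 8.47% and the promoter share between 1.06 and 1.75% under every alternative run.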
